A study of Mus musculus with 8 samples.

Results

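The genes described here encode transcriptional repressors of effector lymphocytes: *Bhlhe40*, *Zbtb32*, *Prdm1* (Blimp1), *Bcl6*, *Zbtb7a* and *Zbtb7b*. They were measured in induced regulatory T cell (iTreg) cultures with or without the Tudor domain gene *Tdrd3*. Of these 6 genes, 5 were measured among the 11911 genes of the count table, and *Prdm1* was not analysed here. *Bhlhe40* and *Zbtb32* were picked by their readout, a higher value in every knockout library, so their genotype difference is given as a description with no test. The other members were chosen by function or family.

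The libraries came from cultures of naïve CD4+ T cells, purified from mouse spleen, stimulated through CD3 and CD28 and polarised for 36 h with TGF-β and antibodies to IL-4 and IFN-γ. Of the 8 libraries, 4 (WT1 to WT4) had the control genotype Foxp3 YFP-Cre and 4 (KO1 to KO4) the genotype Tdrd3 fl/fl/Foxp3 YFP-Cre, so both groups carried the Cre allele. Cre is made from the *Foxp3* locus, so deletion is directed to cells that transcribe *Foxp3*, and no sort of YFP+ cells before RNA isolation is described. The age of the mice is not given in the sources used here, and the methods speak of 3 replicates from independent mice where the labels give 4 libraries per genotype.

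These proteins silence target genes by bringing corepressors and histone-modifying enzymes to DNA. BHLHE40 is a basic helix-loop-helix protein that binds E boxes, while ZBTB32, BCL6, ZBTB7A (LRF) and ZBTB7B (THPOK) pair a BTB domain, through which they dimerise and bind corepressors, with DNA-binding zinc fingers. In CD4+ T cells BHLHE40 is known for shaping cytokine production, ZBTB32 for restraining GATA3-driven cytokines, BCL6 for the follicular helper (Tfh) programme, and THPOK with LRF for keeping the CD8 programme silent.

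Estimated counts summed to between 13258239 and 16001676 per library. Values below are CPM, counts scaled to a common library total, with TMM factors, and 3 counts correspond to 0.188 to 0.225 CPM. *Tdrd3*, the targeted gene, was at 18.8, 15.1, 9.95 and 17.7 CPM in WT1 to WT4 and at 13.7, 10.7, 12.9 and 11.1 CPM in KO1 to KO4. Its log2 fold change was -0.35 (edgeR adjusted p = 0.496) and the library labelled WT3 lay below every KO library, so this gene did not separate the labels, and WT and KO below mean libraries labelled so. The study reports loss of *Tdrd3* in YFP+ Tregs of the spleen by immunoblot and qPCR, and lower *Tdrd3* RNA in iTregs by qPCR. It also places *Tdrd3* with the genes most reduced in its RNA sequencing. The CD8 markers *Cd8a* and *Cd8b1* summed to 21.8 CPM in WT3, the highest library. The lowest WT library had 7.72 CPM, inside the range of 6.68 to 8.35 CPM in the KO libraries. The T cell list had 6 of 7 markers measured, with summed levels of 1690 to 1790 CPM in WT and 1660 to 1740 CPM in KO, and markers of B cells (3 of 7) and myeloid cells (2 of 7) summed to at most 3.71 and 2.11 CPM. *Foxp3*, the lineage factor of Tregs, was at 117, 122, 107 and 93.8 CPM in WT and at 77.2, 105, 93.2 and 78.1 CPM in KO, groups that overlapped (log2 fold change -0.31, edgeR adjusted p = 0.152). All 7 of 7 Treg markers were measured, and their summed level, 3680 to 3820 CPM in WT and 3450 to 3580 CPM in KO, did not overlap. The larger part of that sum was *Il2ra* alone, at 2270 ± 78.3 CPM in WT and 2080 ± 67.5 CPM in KO. Of the 7, only *Foxp3* had an unadjusted edgeR p below 0.05 with a change of at least 1.2-fold. The part of the summed level in the values below was not tested. In such bulk RNA, fewer cells of a type and less RNA per cell cannot be told apart.

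Promoter windows from RefSeq (GRCm38.p6, 250 bases before to 50 bases after a start site) were searched on both strands for the E box CACGTG, for TTCCTNGAA, a form of the BCL6 motif, and for GAAAGTG, a core of the BLIMP1 motif. Among 32851 windows, 7.15% held the E box, 1.59% the BCL6 motif and 4.81% the BLIMP1 motif. The 2 windows of *Zbtb32*, the 1 window of *Zbtb7a* and the 2 windows of *Zbtb7b* held none of these letters. The windows of *Bcl6* are shown because each held 1 match to the motif of a member: the first, chr16:23988803-23989102 on the minus strand, has an E box at position -60 from the start, and the other, chr16:23981234-23981533 on the minus strand, has TTCCTGGAA at position -168. Matches are in capitals and describe letters only.
Bcl6 window with E box: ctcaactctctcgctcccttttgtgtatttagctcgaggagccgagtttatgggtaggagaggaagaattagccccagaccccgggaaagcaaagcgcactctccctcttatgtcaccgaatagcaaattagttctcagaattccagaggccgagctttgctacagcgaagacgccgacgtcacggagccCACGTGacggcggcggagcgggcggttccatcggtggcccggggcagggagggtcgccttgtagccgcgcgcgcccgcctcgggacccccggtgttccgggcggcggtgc
Bcl6 window with BCL6 motif: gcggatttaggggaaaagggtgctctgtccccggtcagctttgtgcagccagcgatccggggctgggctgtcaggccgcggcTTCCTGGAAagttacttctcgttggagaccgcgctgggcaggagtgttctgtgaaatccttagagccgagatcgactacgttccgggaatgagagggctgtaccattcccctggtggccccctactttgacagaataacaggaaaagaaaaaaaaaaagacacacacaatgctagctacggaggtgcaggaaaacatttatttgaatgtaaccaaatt

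A window of *Zbtb32*, chr7:30598860-30599159 on the minus strand, is shown for its 4 CCAAT boxes, in capitals. This motif was chosen after the sequence was read. At least 1 CCAAT on either strand was present in 37.4% of all windows and at least 4 in 1.06%.
Zbtb32 window with CCAAT boxes: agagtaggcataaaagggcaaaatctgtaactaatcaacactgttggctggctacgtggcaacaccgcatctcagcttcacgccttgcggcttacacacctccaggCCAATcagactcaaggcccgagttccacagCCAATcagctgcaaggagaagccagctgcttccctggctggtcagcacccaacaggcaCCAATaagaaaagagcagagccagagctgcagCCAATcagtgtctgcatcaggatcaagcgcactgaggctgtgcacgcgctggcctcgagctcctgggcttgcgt

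In the count table, on GRCm39, *Bhlhe40* (ENSMUSG00000030103) spanned chr6:108637590-108643886 on the plus strand and *Zbtb32* (ENSMUSG00000006310) chr7:30289106-30298334 on the minus strand. *Bcl6* (ENSMUSG00000022508) spanned chr16:23783802-23807602 on the minus strand, *Zbtb7a* (ENSMUSG00000035011) chr10:80971054-80988829 on the plus strand and *Zbtb7b* (ENSMUSG00000028042) chr3:89284951-89302083 on the minus strand. Exons of the opposite-strand transcript Gm71682 covered 43.2% of the exonic bases of *Zbtb32*, and those of 0610040F04Rik covered 7.0% of the exonic bases of *Bhlhe40*. Use of strand in the counting is not stated in the sources used here, and without it reads of such partners cannot be told apart. The estimated counts were not whole numbers in 8 of 8 libraries for *Zbtb32* and in 7 of 8 for *Bhlhe40*, so some of their reads had been counted as fractions. For the other 3 measured members no library had such a count. Among them, exons of opposite-strand Gm15417 covered 15.5% of the exonic bases of *Zbtb7b*, and those of Gm60916 covered 7.0% of those of *Bcl6*. None of the overlapping transcripts named here had a row in the count table. The part of such overlaps in the counts that were not whole was not tested.

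*Bhlhe40* was the most abundant member per length. On the scale of CPM per kilobase of exon, its level was 80.2 ± 4.11 in WT and 100 ± 9.66 in KO (SD, n = 4 each), above 97.4% of 11316 genes. *Zbtb32* came next, at 39.8 ± 2.97 CPM per kilobase in WT and 52.6 ± 7.86 in KO, above 93.9% of genes. The LRF and THPOK genes followed: *Zbtb7b* was at 11.3 ± 0.0507 CPM per kilobase in WT and 10.9 ± 0.282 in KO, and *Zbtb7a* at 9.84 ± 0.165 and 10.8 ± 0.471. These neighbours were separate in WT, where *Zbtb7a* reached at most 10.1 and *Zbtb7b* at least 11.3, but their KO libraries overlapped. *Bcl6* was lowest, at 1.21 ± 0.0783 CPM per kilobase in WT and 1.08 ± 0.0399 in KO, above 17.3% of genes. Every other pair of neighbours in this order was separate in both genotypes.

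**Figure D1:**
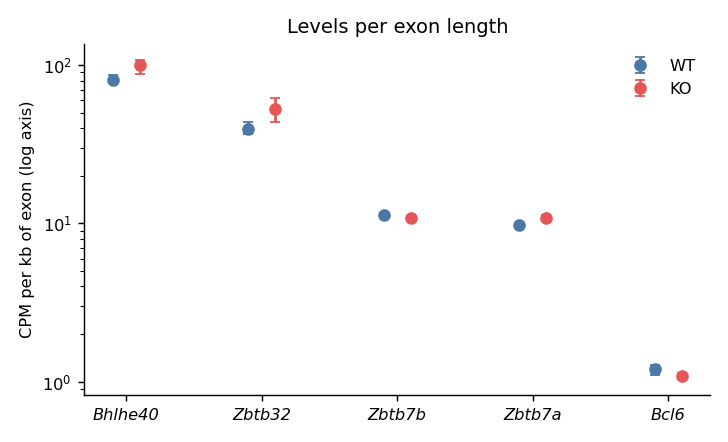
Levels per length of the 5 measured members, in CPM per kilobase of exon on a log axis; points are the means of 4 WT (blue) or 4 KO (red) libraries and bars run from the lowest to the highest library. *Bhlhe40* sits highest and *Bcl6* lowest in both genotypes, while *Zbtb7a* and *Zbtb7b* lie side by side.

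*Bhlhe40* was at 502, 500, 488 and 547 CPM in WT1 to WT4 and at 684, 558, 620 and 687 CPM in KO1 to KO4. KO1 and KO4 were the high libraries and KO2 was the lowest of the KO group, 10.4 CPM (1.9%) above WT4, the highest WT library. The means were 509 ± 26.1 CPM in WT and 637 ± 61.4 CPM in KO (SD, n = 4 each), a log2 fold change of 0.32 (SE 0.06) or 1.25-fold. The Poisson intervals (95%, counting error only) of the nearest pair, 535 to 560 CPM in WT4 and 546 to 570 CPM in KO2, overlapped. Without WT3 the log2 fold change was 0.30, and with 1 surrogate variable from sva in the model it was 0.20.

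*Zbtb32* was at 91.4, 99.3, 96.4 and 109 CPM in WT1 to WT4 and at 139, 109, 122 and 154 CPM in KO1 to KO4. Again KO4 and KO1 were high and KO2 low: it exceeded WT4 by 0.275 CPM (0.252%), and both libraries had Poisson intervals of 104 to 115 CPM. The non-overlap therefore rested on the scaling, since with library size alone the gap was -0.142 CPM and KO2 lay below WT4. The means were 99.0 ± 7.39 CPM in WT and 131 ± 19.6 CPM in KO (SD, n = 4 each), a log2 fold change of 0.40 (SE 0.08) or 1.32-fold. The value was 0.39 without WT3 and 0.22 with the surrogate variable.

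For comparison, 552 of 11317 tested genes (4.88%) had no overlap between genotypes, of which 254 (2.24% of those tested) were higher in every KO library than in any WT library and 298 (2.63%) were lower in every one. Since that pattern chose *Bhlhe40* and *Zbtb32*, nothing is read from their share.

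**Figure D2:**
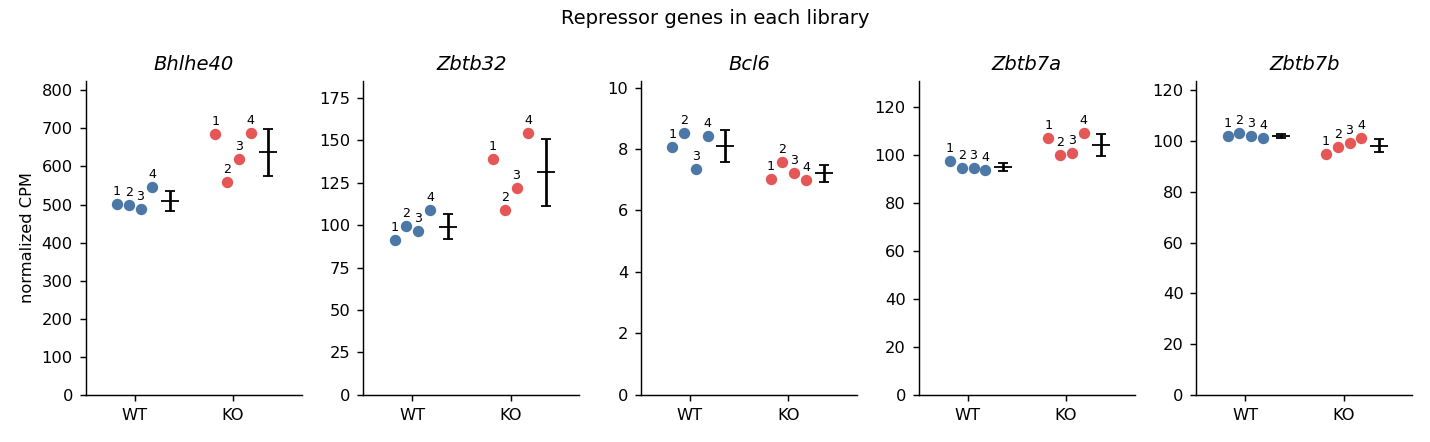
Normalized CPM of each measured member, with 1 point per library (numbered by replicate) and the mean ± SD of 4 libraries beside each group; every axis starts at 0. KO2 is the lowest KO library for *Bhlhe40*, *Zbtb32* and *Zbtb7a* and lies just above the highest WT library in each.

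*Zbtb7a*, which encodes LRF, was not picked for its difference. It was at 97.4, 94.5, 94.4 and 93.9 CPM in WT and at 107, 99.8, 101 and 109 CPM in KO. No KO library overlapped the WT range, with WT1 and KO2 2.36 CPM apart, a gap inside their Poisson intervals (92.4 to 103 and 94.9 to 105 CPM). The means were 95.1 ± 1.60 and 104 ± 4.55 CPM (SD, n = 4 each), a log2 fold change of 0.13 with a 95% interval of 0.03 to 0.23. Its edgeR adjusted p over 11317 genes was 0.329. The WT spread was below the 2.59 CPM expected from counting alone. At an unadjusted edgeR p below 0.05, 1052 genes (9.3%) were called, *Zbtb7a* among them and *Zbtb7b* and *Bcl6* not. The call of *Zbtb7a* was lost with the surrogate variable (log2 fold change 0.10) and without KO4 (0.11). A two-sided exact permutation test gave p = 0.0286, the smallest that 70 arrangements of 4 against 4 libraries allow.

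*Zbtb7b*, which encodes THPOK, was at 102, 103, 102 and 101 CPM in WT and at 94.9, 97.6, 99.2 and 101 CPM in KO. Every KO library lay below every WT library, the opposite side to *Zbtb7a*, but WT4 and KO4 were only 0.565 CPM apart. The means were 102 ± 0.456 and 98.1 ± 2.54 CPM (SD, n = 4 each), and the WT spread was below the 2.68 CPM expected from counting alone. The log2 fold change was -0.06 with a 95% interval of -0.15 to 0.04 (edgeR adjusted p = 0.800; exact permutation p = 0.0286). The permutation p is the smallest this design allows, and the count model gave no call.

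*Zbtb7a* and *Zbtb7b* are paralogs. The ratio of *Zbtb7b* to *Zbtb7a* counts within a library does not depend on library scaling. It was 1.048, 1.085, 1.081 and 1.08 in WT and 0.89, 0.978, 0.982 and 0.922 in KO, every KO value below every WT value. The means were 1.074 ± 0.017 and 0.943 ± 0.045 (SD, n = 4 each), beside a counting error of 0.033 to 0.042 per library. This ratio was computed after both genes had been seen, and it was not tested.

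*Bcl6* was at 8.08, 8.51, 7.36 and 8.43 CPM in WT and at 7.04, 7.58, 7.21 and 6.99 CPM in KO, from 96 to 121 counts per library. The groups overlapped, since KO2 lay above WT3. The means were 8.09 ± 0.524 and 7.21 ± 0.267 CPM (SD, n = 4 each), with spreads below the counting error of 0.755 and 0.708 CPM. The log2 fold change was -0.17 with a 95% interval of -0.44 to 0.11 (edgeR adjusted p = 0.804; exact permutation p = 0.0571). No difference was detected, and the interval includes both no change and a decrease.

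**Figure D3:**
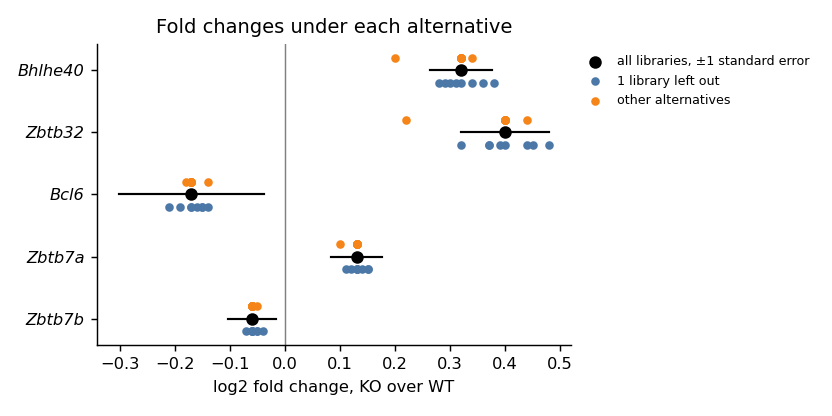
Log2 fold change (KO minus WT) of each measured member with all libraries (black, ±1 standard error), with 1 library left out (blue) and under the other alternatives (orange). *Bhlhe40*, *Zbtb32* and *Zbtb7a* stay above 0 and *Bcl6* and *Zbtb7b* below 0 in all 17 alternatives. The kept direction is no support: where genotypes do not overlap, leaving out 1 library cannot reverse it at a fixed scaling.

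Among the KO libraries *Bhlhe40*, *Zbtb32* and *Zbtb7a* shared 1 order of levels, KO4 above KO1, KO3 and KO2. *Bcl6* had the reverse order, but its KO spread of 0.267 CPM was below the counting error of 0.708 CPM, so nothing is read from that order. Over all tested genes, 572 (5.05%) had the first order and 559 (4.94%) the reverse. The first order was held by 25 of 254 genes (9.84%) higher in every KO library. The reverse was held by 27 of 298 genes (9.06%) lower in every KO library. The highest KO library exceeded the lowest 1.41-fold for *Zbtb32* and 1.23-fold for *Bhlhe40*, against 1.19-fold and 1.12-fold among WT libraries. *Foxp3* and *Klf2*, the gene of a Krüppel-like factor of quiescent T cells, were lowest in KO1 and KO4, the libraries with the highest *Bhlhe40* and *Zbtb32*. *Klf2* was at 51.2, 58.9, 63.0 and 54.6 CPM in WT and at 22.2, 45.3, 44.3 and 24.4 CPM in KO. The part of these *Foxp3* and *Klf2* levels in the values of the repressors was not tested.

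**Figure D4:**
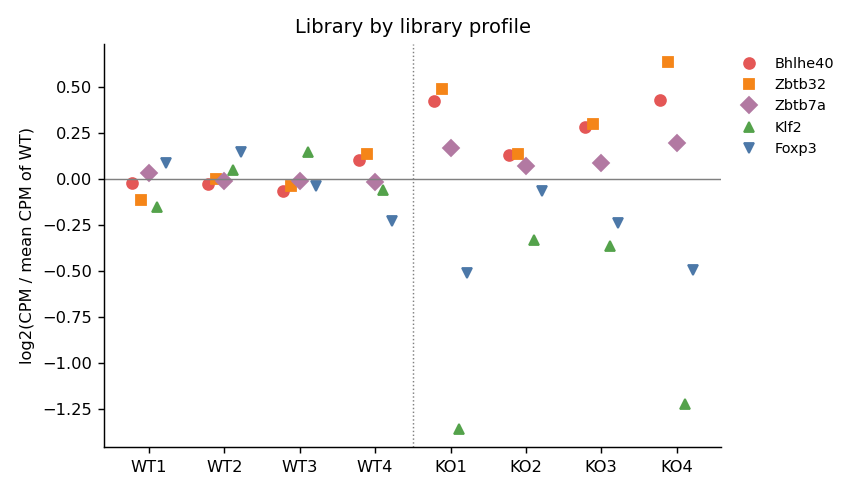
Level of 3 members, *Klf2* and *Foxp3* in each library as log2 of its CPM over the WT mean of that gene; the dotted line divides WT from KO libraries. *Bhlhe40* and *Zbtb32* stand highest, and *Klf2* and *Foxp3* lowest, in KO1 and KO4.

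After subtracting each genotype mean, *Bhlhe40* and *Zbtb32* had a Pearson r of 0.93 and a Spearman rho of 0.81 over the 8 libraries. *Bhlhe40* and *Zbtb7a* had 0.71 and 0.76, and *Zbtb7b* had r between -0.06 and 0.14 with the other members. These values are descriptions over libraries that share depth and composition. Among 9621 genes with a mean of at least 5 CPM, *Cdk17* was among the most alike to *Bhlhe40* (r = 0.99, log2 fold change 0.11). Those most alike to *Zbtb32* were *Phospho2* (r = 0.993, log2 fold change 0.01) and *Aldh1l2* (r = 0.97, 0.59). *Zbtb7a* was nearest to *Eola1* (r = 0.968) and *Klf6* (r = 0.965), *Zbtb7b* to *Lars2* (r = 0.951) and *Dph1* (r = 0.94), and *Bcl6* to *Taf5* (r = 0.973) and *Phf19* (r = 0.968). Genes near in pattern to *Zbtb32* thus included 1 with almost no genotype difference.

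The families, partners and target genes of the members were described by 11 lists. A gene was called where the unadjusted edgeR p was below 0.05 and the change at least 1.2-fold, a cutoff the study used in a figure; its methods state 1.5-fold. Of all 11317 genes tested, 393 (3.47%) were called at 1.2-fold, 201 higher (1.78%) and 192 lower (1.7%) in KO, with a median log2 fold change of 0.0013. At 1.5-fold the count was 147, with 2 higher and 5 lower among the list genes, so most list genes called below changed by less than 1.5-fold. At an adjusted p below 0.05 the count was 30 (0.265%) in edgeR. *Zbtb32* is left out of the counts below, since this contrast chose it. Of the 217 other distinct list genes tested, 40 had an unadjusted p below 0.05, 19 (8.76%) were called, 7 higher and 12 lower, and 0 had an adjusted p below 0.05 in edgeR, against 5 in DESeq2 and 7 with voom. The lists share genes and were chosen with results of these data known, so nothing particular to them is read from this share.

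**Figure D5:**
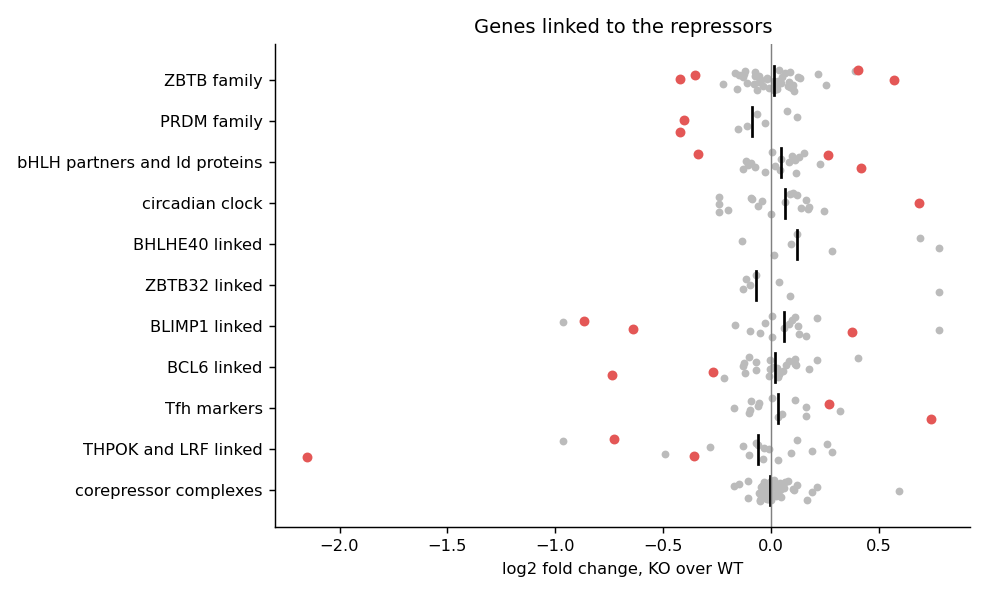
Log2 fold change (KO minus WT) of every tested gene in each list; called genes and *Zbtb32* are red, other genes grey, and the black bar is the list's median. Most genes of each list lie near 0, and the corepressor list holds no called gene.

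Of 44 BTB-zinc finger (ZBTB family) genes tested besides *Zbtb32*, 1 was called higher and 2 lower, with a median log2 fold change of 0.012. The higher was *Hic1*, a repressor gene, at 16.8, 16.4, 15.1 and 26.6 CPM in WT and 32.0, 24.3, 25.7 and 29.5 CPM in KO (edgeR adjusted p = 0.0888). WT4 lay inside the KO range of *Hic1*. The 2 lower were *Zbtb42* (6.21 ± 1.16 to 4.63 ± 0.707 CPM, edgeR adjusted p = 0.478) and *Zbtb46*, a marker of dendritic cells (6.93 ± 0.718 to 5.41 ± 0.812 CPM, adjusted p = 0.507). Leaving out WT1 or KO3 brought the lower count to 0, and leaving out WT2, WT4, KO1, KO2 or KO4 brought it to 1.

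In the PRDM family, to which Blimp1 belongs, 8 genes were tested and 2 were called lower, with a median of -0.09. *Prdm11* was at 8.42, 7.93, 6.59 and 9.49 CPM in WT and 5.95, 6.27, 6.01 and 5.98 CPM in KO, with no overlap (log2 fold change -0.42, edgeR adjusted p = 0.319). *Prdm16*, known from brown fat, went from 18.3 ± 3.23 to 13.8 ± 3.21 CPM with overlap (edgeR adjusted p = 0.345). The count was 1 without WT1, KO1 or KO4.

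Among 20 helix-loop-helix genes related to BHLHE40, including Myc-network and Id genes, 2 were called higher and 1 lower (median 0.044). *Tfap4*, whose product AP4 binds E boxes, was at 24.6 ± 0.712 CPM in WT and 29.5 ± 1.82 CPM in KO without overlap (edgeR adjusted p = 0.152). *Id1*, an inhibitor of E proteins, was at 4.54 ± 0.501 and 6.08 ± 1.57 CPM, and *Mxd1*, a Myc antagonist, at 56.3 ± 7.84 and 44.6 ± 6.53 CPM; their groups overlapped. The change of *Tfap4* was 1.2-fold, at the cutoff, and the unadjusted edgeR p of *Id1* was 0.0453. Leaving out any library except KO3 brought the higher count to 1, and leaving out WT1 or KO1 brought the lower count to 0. With all 8 libraries the higher count was 1 in DESeq2, in voom, with DESeq2 size factors or without a count filter. It was 0 with a replicate block. Of 19 clock genes, which carry E boxes known to bind BHLHE40, 1 was called higher and none lower (median 0.064). The higher count was 2 without WT1 or KO2, and the lower count 1 without WT2 or KO3. *Nfil3*, a clock-linked repressor, was at 21.9 ± 1.16 and 26.0 ± 2.02 CPM and was not called.

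The lists of genes linked to BHLHE40 and to ZBTB32 in T cells had 7 tested genes each. None was called in the main edgeR fit or in DESeq2 (medians 0.12 and -0.069), while voom called 1 higher in each, the same gene *Il2*. At an unadjusted p below 0.05 the main edgeR fit gave 0 and 2 genes. Some other edgeR fits on all 8 libraries did give calls. The BHLHE40 list had 1 gene higher without a count filter, or with at least 10 counts in every library. A replicate block gave 1 higher in each list. *Il3* was at 0.811 ± 0.0468 CPM in WT and 1.31 ± 0.49 CPM in KO with no overlap (edgeR adjusted p = 0.587). *Il2*, which is in both lists, was at 1.00 ± 0.58 and 1.74 ± 0.746 CPM with overlap (edgeR adjusted p = 0.591). Both are low levels. *Il2ra*, the IL-2 receptor alpha chain, was at 2270 ± 78.3 and 2080 ± 67.5 CPM with no overlap, a change under 1.2-fold (edgeR adjusted p = 0.152). *Cd28* was at 168 ± 7.65 and 157 ± 4.39 CPM. In each of these lists 1 gene was called higher without WT4 (*Il2* in both) or without KO2.

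Among 19 genes linked to BLIMP1, 1 was called higher and 2 lower (median 0.062). *Lag3*, an inhibitory receptor, was at 26.8, 26.4, 25.8 and 23.7 CPM in WT and 32.4, 28.6, 36.3 and 36.3 CPM in KO, with no overlap (log2 fold change 0.38, edgeR adjusted p = 0.0671). Of those called lower, *Spib*, an Ets factor gene of B cells, was at 2.59 ± 0.461 and 1.41 ± 0.271 CPM (edgeR adjusted p = 0.239). The higher count was 2 without WT4 or KO3 and 3 without KO2. The lower count ranged from 2 to 3 with 1 library left out.

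Of 26 genes linked to repression by BCL6, 2 were called lower and none higher (median 0.018). These were *Klf2* (56.9 ± 5.13 CPM in WT, 34.0 ± 12.4 CPM in KO, log2 fold change -0.74, edgeR adjusted p = 0.0617) and *S1pr1*. The latter, a receptor for egress from lymphoid tissue, was at 57.7, 58.6, 57.5 and 51.4 CPM in WT and 46.0, 47.1, 48.3 and 45.5 CPM in KO (log2 fold change -0.27, edgeR adjusted p = 0.0671). Neither gene overlapped between genotypes. With 1 library left out the lower count ranged from 1 to 3. It was 1 without WT1, WT3 or KO4, and 1 gene was called higher without WT4, KO2 or KO3. Among 15 Tfh genes 2 were called higher (median 0.031). *Maf*, a transcription factor gene, was at 11.6, 11.6, 14.3 and 21.2 CPM in WT and 28.5, 17.0, 20.1 and 32.7 CPM in KO (edgeR adjusted p = 0.109), with WT4 inside the KO range. *Cd200* was at 53.6 ± 2.50 and 64.7 ± 14.8 CPM (edgeR adjusted p = 0.442). The higher count was 1 without WT1, WT3, KO1 or KO4.

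The lineage genes linked to THPOK and LRF had 19 tested members, of which 3 were called lower and none higher (median -0.063). *Nkg7*, a cytotoxic granule gene, was at 7.05 ± 1.23 CPM in WT and 4.24 ± 1.16 CPM in KO (log2 fold change -0.73, edgeR adjusted p = 0.152). *Cd8a*, which encodes a chain of the CD8 coreceptor, was at 1.37, 0.873, 11.3 and 1.06 CPM in WT and 0.436, 0.564, 1.13 and 1.15 CPM in KO. Its log2 fold change of -2.15 rested on WT3 and was -0.43 without it. *Cd8b1*, the other chain, was at 8.23 ± 1.72 and 6.41 ± 0.652 CPM. Its log2 fold change was -0.36, and -0.22 without WT3. With 1 library left out the lower count ranged from 1 (without WT3) to 5 (without WT4). It was 4 without WT1 or WT2 and 2 without KO2. In this list 1 gene was called higher without WT4, KO2 or KO3.

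None of the 54 corepressor genes tested was called in edgeR, DESeq2 or voom, and 2 had an unadjusted edgeR p below 0.05, with a median log2 fold change of -0.005 and a range of -0.17 to 0.59. *Mbd2*, a NuRD subunit, was at 172 ± 19.4 CPM in WT and 153 ± 8.89 CPM in KO (edgeR adjusted p = 0.38). *Sap30*, a SIN3 subunit, was at 20.2 ± 1.83 and 23.0 ± 1.25 CPM (edgeR adjusted p = 0.513).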

How the data were processed

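Total RNA depleted of ribosomal RNA was sequenced from 8 libraries. Per the labels and methods, the authors aligned reads with STAR 2.7.8a to GRCm39 and deposited estimated counts per gene from the Partek E/M algorithm, filtered and not normalized; the filter and annotation version are not given in the sources used here. Of the deposited values 43% were not whole. Here the estimated counts were rounded and 11317 of 11911 genes kept by filterByExpr (594 left out). TMM scaling and the quasi-likelihood test of edgeR 4.0.16 (R 4.3.3) with genotype alone were used, and p-values were adjusted by Benjamini-Hochberg over the 11317 genes; all tests were two-sided. Exact permutation tests used log2(CPM + 0.5). The fit was tested on simulated data. Levels per length used merged exons of GENCODE on GRCm39. Genes to name were the members, *Tdrd3*, *Foxp3*, up to 4 called genes per list by smallest p (filled to 2), and the 2 genes most alike to each member; some genes that this rule names are not reported here. Members and lists were chosen with earlier results of these data known. Alternatives used DESeq2 1.42.0, limma 3.58.1 (voom) and sva 3.50.0, other scalings and filters, unrounded counts, a replicate block and each library left out. The labels do not tie libraries to mice, though the methods describe independent mice; p-values measure the spread between libraries, which may be technical, and intervals from counts cover counting error only.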

Additional observations from a re-analysis of the deposited data

Results flagged for a closer look

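In groups of 4 libraries, 4 of 66 examined groups held a library far from the others by Dixon's test at the 95% level, about the number that chance gives. The members contributed 1: *Zbtb7a* was at 97.4 CPM in WT1 and at 94.5, 94.4 and 93.9 CPM in the other WT libraries. The counting error of *Zbtb7a* in WT was 2.59 CPM, above the SD of these 4 values. *Hic1* was at 26.6 CPM in WT4 and at 16.8, 16.4 and 15.1 CPM in the others. *S1pr1* was at 51.4 CPM in WT4 and at 57.7, 58.6 and 57.5 CPM in the others. *Cd8a* was at 11.3 CPM in WT3 and at 1.37, 0.873 and 1.06 CPM in the others.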

How the results depend on the processing

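With 1 surrogate variable from sva the log2 fold change was 0.20 for *Bhlhe40* and 0.22 for *Zbtb32*; under the other 16 alternatives each moved by less than 1 SD, with ranges of 0.28 to 0.38 and 0.32 to 0.48 when a library was left out. *Bcl6* (-0.21 to -0.14), *Zbtb7a* (0.10 to 0.15) and *Zbtb7b* (-0.07 to -0.04) kept their direction and stayed above the adjusted threshold in all 17 alternatives. For members without overlap between genotypes, leaving out 1 library cannot reverse the direction at a fixed scaling. The number of genes at an adjusted p below 0.05 was 30, and became 81 with DESeq2, 95 with voom, 87 with a replicate block, 8 with sva and 6 to 162 when a library was left out (8, 12, 10 and 90 without WT1 to WT4, and 6, 162, 19 and 7 without KO1 to KO4); the cause was not tested. The count of 393 at the unadjusted cutoff stayed within 1.5 times in these 17 (268 to 530); with a 1.5-fold cutoff, chosen after seeing the data, it was 147, with 2 list genes higher and 5 lower. Correlations of same-numbered deviations were -0.0521, 0.00462, -0.0518 and 0.064, within the range of all WT and KO pairs (-0.103 to 0.0958). These values gave no sign that replicate numbers pair libraries, but they cannot exclude it. Of 374 list counts under alternatives 68 moved by over 1.5 times, and named genes kept their direction in 471 of 471 fits, 37 of which newly passed the adjusted threshold. Of the 5 measured members *Bcl6* had the fewest counts, 96 to 121 per library.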
